A study of Drosophila melanogaster with 12 samples.

Results

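The comparison described here is ageing in wild type female fruit flies, with RNA of old wild type females set against RNA of young wild type females over all genes. It used 6 of the 12 libraries of the series, 3 from young and 3 from old wild type flies, chosen by their labels alone, and 11403 of 17714 genes had enough reads to be tested. The genotype of all 6 libraries is labelled wOB, and the other 6 libraries came from flies of the genotype ptth120BC2, mutants of the gene for the brain hormone PTTH. Whole bodies of about 15 females were pooled for each library, at 1 week of age for the young groups and 5 weeks for the old ones. The study's text names its wild type and its ages otherwise than the labels do, and the labels were followed. The study calls the 3 libraries of each group biological replicates without saying what separated them, and the p-values cover the variation among these libraries. All levels are normalised read counts, in which the reads of each gene were scaled by the library's DESeq2 size factor. Group values are means with SD (n = 3), and changes are log2 of the normalised count plus 1, old minus young, with their standard error. Positions are those of the BDGP6 assembly.

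Ageing in flies has a known course in RNA. Transcripts of the innate immune system rise: the Imd and Toll pathways, both of which end in NF-kB transcription factors, drive genes for small peptides that the fat body secretes against bacteria and fungi. Transcripts of muscle and of mitochondrial energy metabolism tend to decline. Because whole bodies were used, fewer cells of a type and less RNA per cell cannot be told apart in any of the results.

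The young libraries were not alike. Transcripts of the male accessory gland, which makes seminal fluid proteins, summed over the 24 listed genes to 10410.5 normalised counts in young replicate 1 and 33436 in replicate 2, but to 41.3 in replicate 3 and to between 39.7 and 44.2 in the old libraries. The 25 testis and sperm genes summed to 6547, 23423 and 26.5 in the young libraries and to between 27.8 and 50.6 in the old ones. The RNA lncRNA:roX1 of male dosage compensation was at 812, 1968 and 148 in the young and at 179, 136 and 169 in the old libraries. Young replicates 1 and 2 therefore carried male transcripts despite a female label, and young replicate 3 did not. Along the first principal component of the 6 libraries, which held 89% of the variance, replicates 1 and 2 lay at -92.7 and -148.4, replicate 3 at 55.1 and the old libraries between 60.6 and 63.8. Yolk and eggshell genes, which mark ovaries and egg-laying females, were high in all 6 libraries, with sums between 527112 and 858200. Depth lay between 16448805 and 28206866 reads. Each change was for this reason also measured against young replicate 3 alone. A call that "held" below is one in which replicate 3 lay outside the range of the old libraries and at least 2-fold from their mean in the same direction. A second fit left out the 3 libraries of the series with male transcripts, which kept a single young wild type library and assumed that it varies like the other groups. Its log2 changes in wild type are therefore the same as those against replicate 3 alone.

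With age 101 genes rose (0.886% of those tested) and 247 fell (2.17%) at a limma adjusted p under 0.05 and a change over 2-fold. Of these calls 39 rises and 99 falls were over 4-fold, and 11 and 32 over 16-fold. The median log2 change was 1.61 for the rises and -1.61 for the falls, beside 0.03 for all genes tested. Among the rises 97 held (0.851%), with a median log2 change of 2.01 for all 101 against replicate 3. Among the falls 174 held (1.53%). In all 247 falls replicate 3 was above every old library, but in 73 of them by less than 2-fold from their mean, and the median of the falls was -1.31 against replicate 3. Replicate 3 was the lowest of the young libraries in 83.4% of the falls, in 61.4% of the rises and in 50.6% of all genes tested. Genes of the lists for male tissues were not called and had widely scattered young values: none of the 23 accessory gland and none of the 24 testis genes tested was called, with medians of -4.70 and -4.84 against all young libraries and 0.04 and 0.34 against replicate 3. Without the libraries with male transcripts 130 genes were called higher (1.14%) and 103 lower (0.903%), of which 66 and 98 were also called with all libraries. The share of rises among the calls thus went from 29% to 55.8%, and quantile normalisation of the libraries moved it to 57.1% (204 rises and 153 falls). Single libraries set the counts too: without young replicate 3 1418 genes were lower, and the rises were 55 without old replicate 3 and 64 without old replicate 1.

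**Figure D1:**
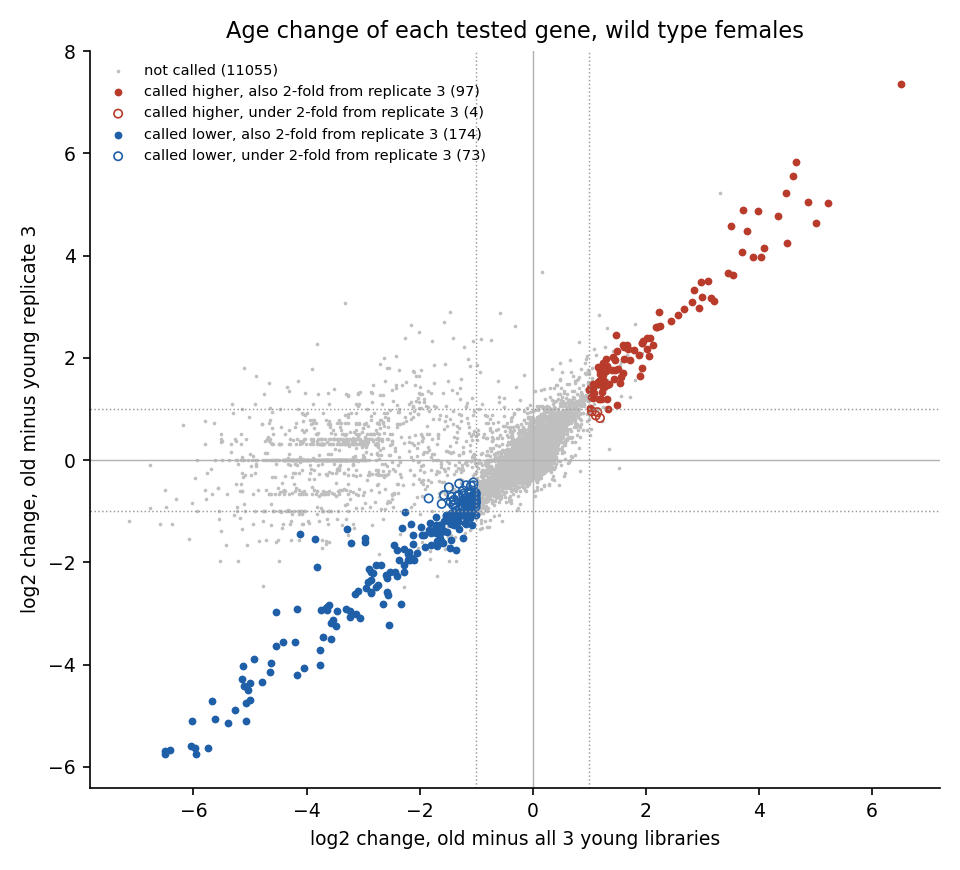
Each point is 1 of the 11403 genes tested, with the log2 change from all 3 young libraries on the x axis and from young replicate 3 alone on the y axis. Red points are the genes called higher and blue points those called lower, filled where they held (97 and 174) and open where they were under 2-fold from replicate 3 (4 and 73); the grey cloud at the left, near 0 on the y axis, holds the genes that were high only in the young libraries with male transcripts.

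The antimicrobial peptides rose as a group. These are short secreted peptides, such as attacins, cecropins, diptericins and drosocin, that damage bacterial or fungal membranes. Of 15 tested 12 rose, where 0.886% of all genes tested rose. All 12 held, and none fell. The median log2 change was 3.55 (3.98 against replicate 3) where all genes tested had 0.03. In 14 of the 15 every old library was above every young one, a pattern that 10.7% of all genes tested showed. Without the libraries with male transcripts fewer than these 12 passed. The median there is the same 3.98, since replicate 3 is then the only young library, and is no second check. The count also depended on single libraries, with 3 calls without old replicate 3, 5 without old replicate 1, old replicate 2 or young replicate 2, and 8 without young replicate 1.

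DptA, a diptericin gene on chromosome arm 2R, had 581, 459 and 484 normalised counts in the young libraries and 5779.9, 9538 and 11726 in the old ones. The lowest old library thus lay almost 10-fold above the highest young one, and the mean went from 508 ± 64.5 to 9015 ± 3007 (4.09 ± 1.00 on the log2 scale, limma adjusted p = 0.0260). With young replicate 3 as the only young library the change was 4.16, adjusted p = 0.131, so the change kept its size and lost the call. Dro, drosocin, changed most of the list, from 199, 98.9 and 172 to 2942, 6923 and 8981 (5.23 ± 0.99, adjusted p = 0.00649), and it passed also with replicate 3 alone (5.04, adjusted p = 0.0445). CecA2, a cecropin, was at 65.9, 12 and 10.8 and then 270.1, 323 and 470.0 (3.99 ± 0.94, adjusted p = 0.0210). Young replicate 1 was the highest young library for CecA2, and the same held for the attacins AttA (111, 32.7 and 29.5 young, 494, 742 and 845 old, 3.80 ± 0.85, adjusted p = 0.0162) and AttB (423, 112 and 63.9 young, 1387, 2036 and 2526 old, 3.72 ± 0.84, adjusted p = 0.0167). Mtk, the antifungal metchnikowin, had 560.1, 321 and 392 in young and 3809, 4025 and 7469 in old libraries (3.55 ± 0.87, adjusted p = 0.0257). The elevated infection-induced gene edin went from 8.54, 0 and 0.982 to 70.5, 36.3 and 58.3 (4.34 ± 1.00, limma adjusted p = 0.0195), with young replicate 1 above the other young libraries again. edin was under 10 in every young wild type and mutant library. It passed the filter of 10 in 3 libraries through old wild type only, so its call could only be a rise. The other called members, AttC, AttD, DptB, CecB and CecC, changed by between 2.20 (AttD) and 3.89 (DptB).

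The members that did not pass differed in pattern. CecA1 was at 106, 119.6 and 14.74 in the young and 494, 505 and 805 in the old libraries (3.32 ± 1.11, adjusted p = 0.0941). Replicate 3 alone was low among its young values, and without the other young libraries it passed (5.22, adjusted p = 0.0274). Drs, the antifungal drosomycin and a target of Toll in the fat body, passed on its p-value but stayed just under 2-fold (5095, 5525 and 4439.5 young, 7503, 8743 and 14919 old, 0.99 ± 0.23, adjusted p = 0.0201). Def, the defensin, had 359, 663 and 318 and 853, 572 and 622 with groups that overlapped (0.67 ± 0.36, adjusted p = 0.255). CecA1 and CecA2, AttA and AttB, and DptA and DptB are near-identical or neighbouring copies, and how the counting treated reads shared between copies is not stated, so their single values are uncertain.

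The Bomanins and Daisho peptides, short effectors of the Toll pathway, rose by less. Of 14 tested 9 rose, where 0.886% of all genes tested rose. All 9 held, and the median log2 change was 1.36 (1.66 against replicate 3). IM23, which encodes the bicipital Bomanin BomBc1, had the largest change of them, with 76.9, 145 and 71.7 in the young and 895, 1265 and 1601 in the old libraries (3.70 ± 1.03, adjusted p = 0.0473). IM1, the short Bomanin BomS1, went from 655, 952 and 587 to 3671, 4177 and 6170.0 (2.67 ± 0.58, adjusted p = 0.0136). CG43202, now named BomT1, went from 26.8, 36.7 and 23.6 to 137, 201 and 189 (2.56 ± 0.44, adjusted p = 0.00373), and CG15065, now BomS5, from 261, 368 and 212 to 888, 836 and 1536 (1.93 ± 0.41, adjusted p = 0.0120). In 13 of the 14 the old libraries lay above the young ones without overlap, as in 10.7% of all genes tested. The exception, CG18107, was at 379.5, 367 and 269 in young and 369, 272 and 364 in old flies (-0.01 ± 0.16, adjusted p = 0.968), so that not every listed peptide moved. Without the libraries with male transcripts 5 of the 14 passed, and the count was 2 without old replicate 3, 3 without young replicate 1, 5 without old replicate 1 and 6 without old replicate 2.

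**Figure D2:**
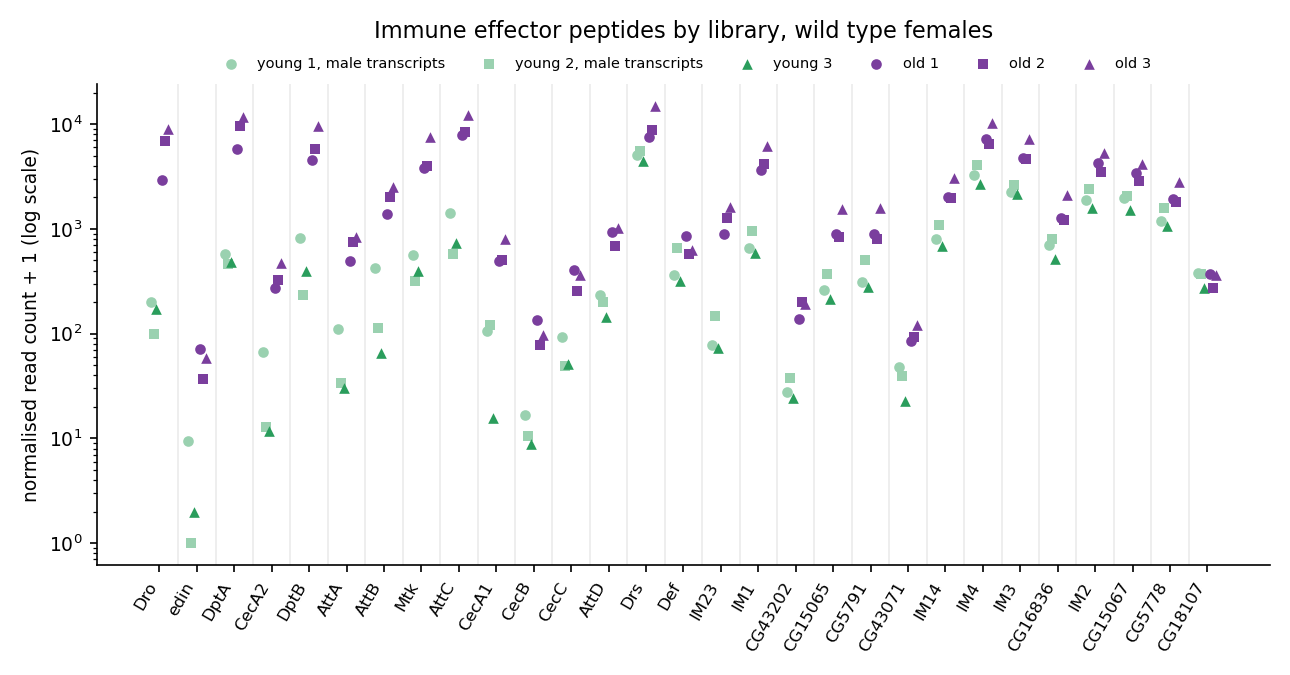
Normalised read count plus 1, on a log scale, of the 15 antimicrobial peptides (left) and the 14 Bomanins and Daisho peptides (right) in each wild type library; within each set genes run from the largest to the smallest log2 change. Purple old libraries lie above all green young ones in 14 of the 15 and 13 of the 14 genes, as in 10.7% of all genes tested. Light green marks the young libraries with male transcripts.

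Upstream of these effectors little passed. Of 33 tested genes of Imd and Toll signalling 1 rose and 1 fell, with a median of 0.19. PGRP-SB1, a peptidoglycan recognition protein, went from 576, 388 and 344 to 1649, 1495 and 2333 (2.07 ± 0.40, adjusted p = 0.00709) and held. PGRP-SC1a, an amidase that degrades peptidoglycan, was called lower (514, 575 and 373 young, 299.9, 162 and 184 old, -1.20 ± 0.30, adjusted p = 0.0284) but was under 2-fold from replicate 3 (-0.84). The receptor PGRP-LC had 671, 792 and 562 and 1052, 844 and 1237 (0.63 ± 0.15, adjusted p = 0.0256), and Rel, the NF-kB factor of Imd, 3334, 3137 and 2722 and 4109, 3874 and 4850.0 (0.48 ± 0.09, adjusted p = 0.00749). Both had every old library above every young one at changes under 2-fold. The 18 genes that relay the signals, from imd and Tl to Rel, Dif and dl, had changes between -0.08 and 0.50, and none was called. In 8 of these 18 every old library was above every young one. Over all 33 genes this was so in 13, and 2 had every old library below, against 10.7% and 11.6% of all genes tested. The 11 genes of JAK-STAT signalling, a cytokine pathway, gave no call (median 0.14), nor did the 4 Turandot stress peptides tested (median 0.23).

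SPH93, a serine protease homologue, had the largest change of all called rises with a mean of at least 50. It lies on chromosome 2L, 17454263 to 17455923, minus strand, and had 7.32, 9.57 and 2.95 normalised counts in the young libraries against 526, 401 and 1263 in the old ones (6.52 ± 0.87, adjusted p = 0.000690). lncRNA:CR44404, which RefSeq names IBIN, is known as a transcript induced by infection and went from 14.6, 6.38 and 7.86 to 202, 317 and 391 (4.86 ± 0.81, limma adjusted p = 0.00289). lncRNA:CR45045 on chromosome 3R went from 32.9, 13.6 and 27.5 to 367, 580.2 and 749 (4.49). CG43920 on 2R went from 26.8, 4.79 and 4.91 to 135, 259.5 and 302 (4.49). The Ensembl annotation used for positions lists IBIN and these genes as protein coding. In all 4 genes the old libraries lay far above the young ones, and all 4 passed also without the libraries with male transcripts. CG18067, now named Bbd for Bombardier, which short Bomanins need to accumulate, rose from 6589 ± 1488 to 25836 ± 10430.3 (1.93 ± 0.36, adjusted p = 0.00649). It had been put in the list of female tract genes, where it was the only call among 7, so that list did not rise. The serine protease spirit of Toll activation (1.60, adjusted p = 0.000440), the serpin Spn88Eb (1.79, adjusted p = 0.000278) and Listericin, an antibacterial peptide (1.61, adjusted p = 0.00568), were called too, near the median called rise of 1.61; these last 3 were picked from the called genes after their values were seen.

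Of 15 blood cell markers 2 fell and none rose, and of 4 thioester genes 1 rose, where 2.17% of all genes tested fell and 0.886% rose. PPO2 and PPO1 encode prophenoloxidases, enzymes of melanin formation that crystal cells of the blood make. PPO2 fell from 1383, 1894 and 1065 to 127, 96.4 and 147 (-3.52 ± 0.21, adjusted p = 1.92e-06) and PPO1 from 869, 1377 and 726 to 105, 87.8 and 95.3 (-3.30 ± 0.22, adjusted p = 4.80e-06). Old and young libraries lay at least 5-fold apart in both, and both passed with replicate 3 as the only young library (-3.12 and -2.91). Tep2, a complement-like thioester protein, rose from 2014, 2393 and 1565 to 3916, 3760.5 and 5742 (1.16 ± 0.18, adjusted p = 0.00192). All 4 thioester genes tested had the old libraries above the young ones, as did 10.7% of all genes tested, with a median of 0.82. The other 13 of the 15 blood cell markers tested, most of them of plasmatocytes, gave no call.

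Muscle genes fell. The sarcomere is built from thin filaments of actin, tropomyosin and troponin, thick filaments of myosin and its partners, and the Z discs that anchor the thin filaments. Of 33 genes tested 22 fell and none rose, where 2.17% of all genes tested fell; 17 of the 22 held, and the median log2 change was -1.30 (-1.02 against replicate 3). In 31 of the 33 every old library was below every young one, as in 11.6% of all genes tested. The genes summed to between 278202 and 371132 normalised counts in the young libraries, replicate 3 lowest, and to between 130227 and 162801 in the old ones. Without the libraries with male transcripts 13 fell.

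Of the 13 thin filament genes 7 fell. TpnC4, a troponin C of flight muscle on arm 2R, changed most, with 1569, 1690.1 and 1329 in the young and 26.3, 18.1 and 27.8 in the old libraries. TpnC41C, another troponin C, went from 901, 1113 and 859 to 233, 194 and 238 (-2.10 ± 0.15, adjusted p = 5.89e-06), whereas TpnC73F had 1137, 1105 and 859 and 1029, 827 and 1267 with overlapping groups (adjusted p = 0.999). The listed troponin C genes thus ranged from nearly no transcript left in old flies to no call. Act88F, the actin of indirect flight muscle (chromosome 3R, 15439969 to 15442177, plus strand), had 11359, 10345 and 4959 in the young libraries and 1067, 1350.2 and 985 in the old ones (-2.89 ± 0.30, adjusted p = 0.000123). Replicate 3 was by far the lowest young library but lay above every old one, at a change of -2.14. Act57B, an actin of other muscles, had 21735, 22137 and 13578 and 11284, 9364 and 13488; replicate 3 lay just above the highest old library (-0.73 ± 0.17, adjusted p = 0.0226, and -0.27 against replicate 3).

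Of the 9 thick filament genes 8 fell, and all 8 held. Mf, myofilin, went from 29232, 33047 and 24639 to 6560.2, 5625 and 7560.3 (-2.14 ± 0.12, adjusted p = 1.13e-06), and the myosin light chain Mlc2 from 24741, 26785 and 18848 to 8618, 7246 and 9308 (-1.48 ± 0.13, adjusted p = 4.49e-05). The giant titin-like genes bt (-1.35) and Unc-89 (-1.69) fell, and sls, at -0.93 (adjusted p = 0.0237), stayed under 2-fold. Of the Z disc genes 5 of 6 fell and 2 held: Zasp67 went from 181, 121 and 138 to 9.56, 16.2 and 9.27 (-3.56 ± 0.31, adjusted p = 2.64e-05), far more than its relatives Zasp52 (-1.31) and Zasp66 (-1.29). Among genes of calcium handling and energy buffering, Scp1, a sarcoplasmic calcium-binding protein, had 10686, 9441 and 7269 in the young and 307, 264 and 234 in the old libraries (-5.07 ± 0.15, adjusted p = 5.75e-09), the smallest adjusted p of the comparison together with that of Mpcp1. SERCA, the calcium pump of the sarcoplasmic reticulum, fell from 32657, 37369 and 30375 to 12433, 12359.7 and 13376 (-1.39 ± 0.08, adjusted p = 1.92e-06), while Argk, arginine kinase, did so by less than 2-fold (-0.74, adjusted p = 0.00238).

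**Figure D3:**
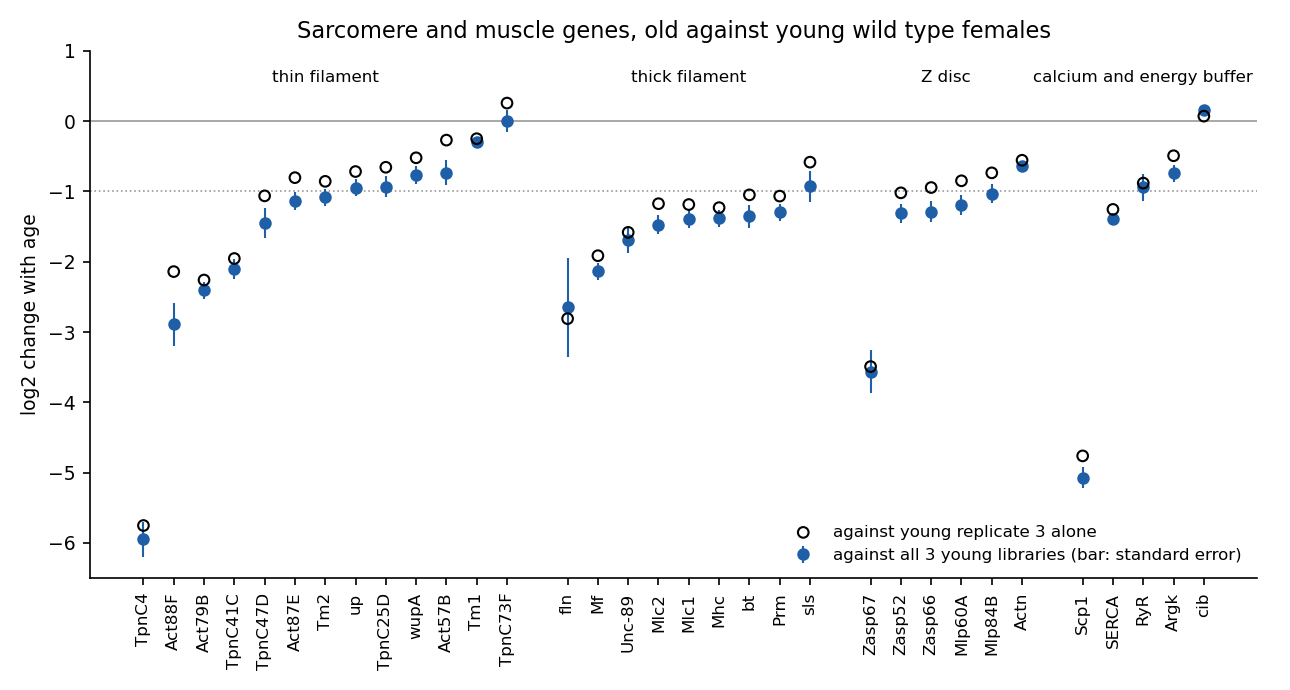
Log2 change with age of the 33 sarcomere and muscle genes, grouped by their place in the sarcomere, against all 3 young libraries (filled, with the standard error) and against young replicate 3 alone (open). TpnC4, Scp1 and Zasp67 fell furthest, the thick filament genes fell to between -0.93 and -2.65, and most open symbols lie slightly closer to 0.

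Lists of energy metabolism gave 3 calls in all, and their medians lay between -0.61 and -0.22. Of the 66 nuclear genes of the respiratory chain none was called, and the median was -0.44 (-0.35 against replicate 3). In 65 of the 66 every old library was below every young one, against 11.6% of all genes tested, and 59 were lower at an adjusted p under 0.05 and changes under 2-fold, where 5.73% of all genes tested were lower at that p. Of the 66, 2 were so without the libraries with male transcripts (1.51% of all). The medians were -0.38 for complex I, -0.63 for complex II, -0.50 for complex III, -0.55 for complex IV and -0.43 for the ATP synthase, complex V. Replicate 3 was above all old libraries in 65 of the 66. Among all 11403 genes tested it lay outside their range, above or below, in 6376. ND-B8, a complex I subunit that was not on the list, fell from 169.6, 179 and 123 to 2.39, 0.954 and 1.32 (-5.97 ± 0.68, adjusted p = 0.000240), a drop of a different order from that of the 32 listed complex I genes, whose changes lay between -0.77 and -0.20. Its change in the mutants was -5.99. ND-B8 lost its call without the libraries with male transcripts (-5.64, adjusted p = 0.0652). Mpcp1, a phosphate carrier of the inner mitochondrial membrane, fell from 5251, 5311 and 4658 to 594, 510.5 and 633 (-3.13 ± 0.10, limma adjusted p = 5.75e-09). Mpcp1 was on no list and was picked from the called genes. Of 17 transcripts of the mitochondrial genome mt:srRNA, the small ribosomal RNA, was the only call (1988, 2473 and 1681 young, 509, 423 and 401 old, -2.19 ± 0.20, adjusted p = 4.91e-05). The large ribosomal RNA mt:lrRNA did not follow it (-0.49 ± 0.16, adjusted p = 0.0799); both are counted in libraries selected for poly(A) RNA. In glycolysis and glycogen metabolism 2 of 21 genes were called lower, the aldolase Ald (-1.18) and the glycerophosphate oxidase Gpo1 (-1.09), and neither held (Ald -0.95 and Gpo1 -0.76 against replicate 3). The 14 citric acid cycle genes gave no call (median -0.22).

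Early zygotic genes are those that the embryo itself first transcribes, at the blastoderm stage, and several of them also act in adult tissues. Of 20 tested in these adult females 10 fell and all 10 held, where 2.17% of all genes tested fell. The median log2 change was -2.33 (-1.38 against replicate 3). CG10035, Bsg25A, Elba3 and Tom were under 10 in every old wild type and mutant library. They passed the filter of 10 in 3 libraries through the young wild type libraries only, so a call could only be a fall. A filter of 10 in 6 libraries gave 1 call, and a replicate block on the wild type libraries gave 3. CG10035 (chromosome 3R, 12380869 to 12382691, minus strand) had 323, 266 and 136 normalised counts in the young and 0, 2.86 and 3.97 in the old libraries (-6.41 ± 0.70, adjusted p = 0.000175). Bsg25A, also named Elba1, which encodes part of an insulator complex of the early embryo, had 42.7, 137 and 47.2 in the young libraries and was at 0 in all old ones. With 3 reads over the old libraries as the limit that a count of 0 allows, it was at least 72.6-fold lower, and at least 41.5-fold lower than in replicate 3 alone. Its partner Elba3 had 23.2, 144 and 45.2 and then 1 read in the old libraries together, a ratio of 209-fold (95% interval 37.2 to 8298) by an exact binomial interval that covers counting error only. Young replicate 2 was the highest library for both, and against replicate 3 alone the ratio for Elba3 was 119-fold (20.4 to 4814). Tom, an inhibitor of Notch signalling of the Bearded family, had 153, 117 and 48.1 in the young libraries and 3 reads in the old ones, a ratio of 91.4-fold (95% interval 31 to 445) and against replicate 3 of 42.4-fold (13.7 to 212).

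The remaining calls of that list were bnk, halo, term, tll, Kr and twi, which act in cellularisation, lipid droplet transport and patterning of the embryo. bnk had 36.6, 118 and 67.8 in the young libraries and 3 reads in the old ones, a ratio of 70.3-fold (95% interval 23.8 to 343), halo 35.4, 122 and 20.6 and 1 read, a ratio of 173-fold (95% interval 30.8 to 6882), and term 23.2, 61.4 and 18.7 and 1 read, a ratio of 98.2-fold (95% interval 17.3 to 3913). Young replicate 2 was the highest library for all 3, and against replicate 3 alone the ratios were 59.7-fold (19.6 to 296) for bnk, 54.5-fold (8.76 to 2252) for halo and 49.3-fold (7.83 to 2048) for term. twi, a factor of mesoderm formation, went from 59.8, 104 and 27.5 to 13.1, 5.73 and 14.6 (-2.31 ± 0.55, adjusted p = 0.0233). tll, at 14.6, 16 and 15.7 in the young libraries and 0 in the old ones, was at least 13.7-fold lower, and Kr went from 56.1, 63 and 34.4 to 9.56, 7.63 and 1.32 (-3.08 ± 0.55, adjusted p = 0.00440). The listed genes with the highest levels did not pass and overlapped between ages: slam had 1425, 1779 and 1824 and 1463, 1691 and 1392 (-0.14 ± 0.11, adjusted p = 0.420), and Elba2, the other partner of Bsg25A, 1367, 1262 and 1937 and 1590.5, 1823 and 1588 (0.15 ± 0.13, adjusted p = 0.464). Replicate 3, free of male transcripts, lay above all old libraries in 16 of the 20 and below all of them in 2. Among all 11403 genes tested it lay outside their range, above or below, in 6376. In the mutants the same 20 genes had a median of 0.00 and no call. CG10035, Bsg25A, Elba3 and Tom, however, were tested only through their young wild type level. Only CG10035 passed the limma test of the difference between genotypes (adjusted p = 0.0149). It did not pass without the libraries with male transcripts. No list of ovary genes gave a call beside them. Yolk and eggshell genes had none among 27 tested (median -0.19, and 0.05 against replicate 3), the 24 germline and oocyte genes none (0.05) and the 30 genes of cell cycle and DNA replication none (0.13).

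**Figure D4:**
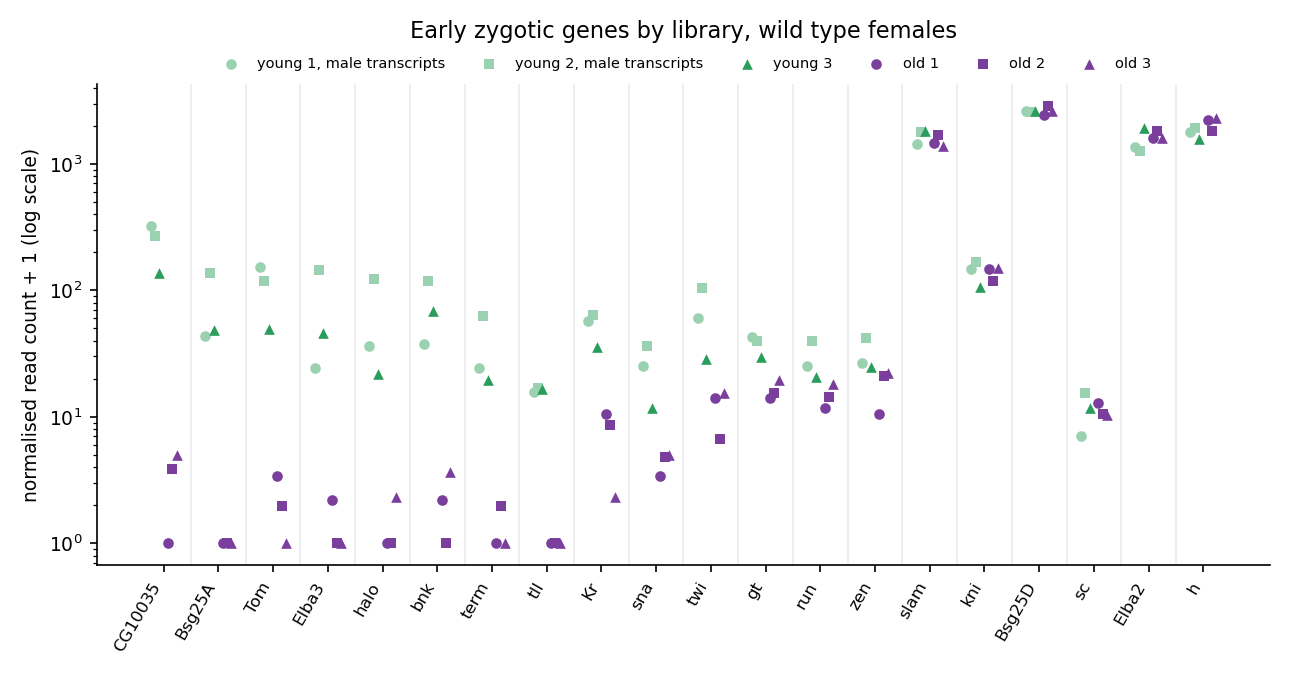
Normalised read count plus 1, on a log scale, of the 20 early zygotic genes tested in each wild type library, ordered by their log2 change. For the genes at the left, such as CG10035 and Bsg25A, the purple old libraries lie at 0 to a few counts and every green young library, replicate 3 included, lies far above them; at the right slam, kni, Bsg25D, Elba2, sc and h overlap between ages.

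Several of the largest falls had the same form, with young counts in all 3 libraries and almost none in old flies. CG14317, which RefSeq names bard (chromosome 3R, 18081048 to 18082583, plus strand), had 64.7, 208 and 53.1 in the young libraries and 0 in all old ones, at least 105-fold lower, and at least 46.7-fold lower than in replicate 3 alone. CG13427 had 172, 188 and 76.6 in the young libraries and 2 reads in the old ones, a ratio of 194-fold (95% interval 53.5 to 1609) and against replicate 3 of 101-fold (27.1 to 850.0). CG4440 had 143, 113 and 48.1 and 2 reads, a ratio of 132-fold (95% interval 36.1 to 1091) and against replicate 3 of 63.5-fold (16.7 to 539). link went from 261, 211 and 94.3 to 9.56, 3.82 and 1.32 (-5.15 ± 0.55, adjusted p = 0.000133), and Ama, the secreted adhesion protein Amalgam, from 179, 111 and 54 to 3.58, 2.86 and 3.97 (-4.54 ± 0.82, adjusted p = 0.00511). Replicate 3 was the lowest young library for all 5 and still at least 5-fold above the highest old one. All 5 were under 10 in every old wild type and mutant library. They passed the filter of 10 in 3 libraries through the young wild type libraries only, so a call could only be a fall. In these 5 genes the change without the libraries with male transcripts passed for CG14317, CG13427, CG4440 and link, and not for Ama (-3.63, adjusted p = 0.0738). Other falls were even across the young libraries: CG13026 had 132, 119 and 83.5 and 1.19, 1.91 and 2.65 (-5.27 ± 0.34, adjusted p = 3.10e-06), and CG15617 had 427, 465 and 280.0 and 9.56, 15.3 and 14.6 (-4.79 ± 0.34, adjusted p = 6.28e-06). In all, 10 of the 247 genes called lower were at 0 in every old library, and 13 had 1 to 3 reads there.

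Among hormones and neuropeptides single genes were called within lists that otherwise gave none. Of 19 neuropeptide genes 1 rose and 1 fell. Nplp3, a neuropeptide-like precursor, fell from 1318, 1479 and 1796 to 136, 132 and 75.5 (-3.77 ± 0.19, adjusted p = 4.12e-07), and replicate 3 was here the highest young library. Ptth, the gene mutated in the other genotype, rose from 35.4, 39.9 and 25.5 to 75.3, 76.3 and 76.8 (1.18 ± 0.22, adjusted p = 0.00663). Of 18 genes of insulin and adipokinetic hormone signalling 2 fell. Ilp4, an insulin-like peptide known from the embryo, had 53.7, 33.5 and 13.8 in the young and 0 in all old libraries. It was at least 28.5-fold lower (at least 12.1-fold against replicate 3), and the young mutants had 2.93, 0 and 1.02. Ilp4 was under 10 in the old mutants too. It passed the filter of 10 in 3 libraries through young wild type only, so its call could only be a fall. Ilp3, made in the insulin-producing cells of the brain, went from 22, 23.1 and 14.74 to 3.58, 5.73 and 7.94 (-1.66 ± 0.44, limma adjusted p = 0.0363). The call for Ilp3 was lost without the libraries with male transcripts (-1.27, adjusted p = 0.216). The 8 receptor and relay genes, InR, Akt1 and foxo among them, had changes between -0.12 and 0.22. In the ecdysone pathway shd, the last enzyme of hormone synthesis, was the only call of 20 (-1.05, and -0.70 against replicate 3, not held), and in the juvenile hormone pathway Jhedup was the only call of 10 (-1.06, and -0.92, not held). The 9 clock genes gave no call.

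In the gut lists most genes did not pass. The trypsin epsilonTry fell from 5809.9, 7806 and 4171 to 1662, 1442 and 1423 (-1.93 ± 0.19, adjusted p = 8.27e-05), 1 of 2 calls among 28 proteases. The other, Jon25Bi, changed by -1.44 but by -0.72 against replicate 3, and the median of the list went from -0.49 to -0.01 with that baseline. Among 26 carbohydrases and lysozymes 3 rose and 1, the lysozyme LysE, was called lower without holding. The alpha-mannosidases LManIII (59.8, 266 and 62.9 young, 519, 720.4 and 283 old, 2.23 ± 0.50, adjusted p = 0.0173) and LManV (500.3, 989 and 405 young, 1522, 1578 and 1272 old, 1.31 ± 0.29, adjusted p = 0.0147) held. The count of 3 rises was 1 without young replicate 1, old replicate 1 or old replicate 2. For LManIII young replicate 2 stood above the other young libraries and close to the lowest old one.

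Genes of metal and stress handling rose singly. Tsf1, transferrin, which carries iron in the blood, went from 6117, 12511 and 7513 to 20046, 17273 and 25628 (1.32 ± 0.30, adjusted p = 0.0192), and the metallothionein MtnA from 3717, 4189 and 1995 to 7521, 6015 and 7714 (1.16 ± 0.22, adjusted p = 0.00711). Tsf1 lost its call without the libraries with male transcripts (1.46, adjusted p = 0.0651). Both were the only calls among 26 genes; the 17 antioxidant enzymes had a median of 0.05 and changes between -0.28 and 0.38. Ets21C, a transcription factor downstream of JNK, rose from 127, 91.7 and 83.5 to 243, 162 and 234 (1.07 ± 0.22, adjusted p = 0.00960), the only call of 17 stress and cell death genes. Of 19 chaperones Hsc70-1, a heat shock cognate, fell from 1265, 1578 and 1025 to 505, 427 and 575 (-1.35 ± 0.16, adjusted p = 0.000267) and none rose. Of 78 cytochrome P450 genes Cyp304a1 (1.46, adjusted p = 0.00440) and Cyp4e3 (1.08, adjusted p = 0.0499, and 0.186 without the libraries with male transcripts) rose, and Cyp313a1 was called lower without holding; the 33 glutathione S-transferases gave no call. The machinery of protein synthesis and breakdown gave no call, with a total of 0 among 87 cytosolic ribosomal proteins (median 0.11), 72 mitochondrial ribosomal proteins (0.02), 31 proteasome subunits (0.12) and 16 autophagy genes (0.06).

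Cuticle proteins gave 9 falls, 6 of which held, and 3 rises among 32 tested (median -0.80, and -0.40 against replicate 3). Of all genes tested 2.17% fell and 0.886% rose. Cpr49Ag went from 115, 113 and 89.4 to 21.5, 15.3 and 19.9 (-2.43 ± 0.22, adjusted p = 4.49e-05), while Cpr49Ac, a neighbour in the same gene cluster, rose from 3.66, 3.99 and 2.95 to 25.1, 32.4 and 51.6 (2.99 ± 0.62, adjusted p = 0.0108). Acp1, at 24.4, 14.4 and 15.7 in the young libraries, had 3 reads in the old ones, a ratio of 15.4-fold (95% interval 4.99 to 76.9). Acp65Aa, the adult cuticle protein, fell from 19.5, 36.7 and 45.2 to 10.8, 3.82 and 3.97 (-2.33 ± 0.47, adjusted p = 0.00980). Cpr49Ac, Acp1 and Acp65Aa lost their calls without the libraries with male transcripts (adjusted p = 0.0832, 0.0722 and 0.0885), where 3 falls and 1 rise were left in the list, and without old replicate 2 the falls were 5, without old replicate 3 the rises 0. retinin, a protein of the corneal lens, fell from 2236, 2269.9 and 1671 to 326, 242 and 274 (-2.87 ± 0.18, limma adjusted p = 2.12e-06). It was on no list and was picked from the called genes. Behind the lens, the 26 opsins and phototransduction genes gave no call (median -0.02). Among 30 odorant-binding proteins Obp44a fell from 1718, 2324 and 1538 to 779, 663 and 645 (-1.40 ± 0.15, adjusted p = 0.000153). Of 25 fat body genes the lipase Lip3 rose (3.27 ± 0.363 to 17.9 ± 3.15, 2.14 ± 0.51, adjusted p = 0.0234) and the larval serum protein Lsp1gamma fell (47.6 ± 22.9 to 5.55 ± 2.34, -2.86 ± 0.69, adjusted p = 0.0249), the latter not without the libraries with male transcripts (adjusted p = 0.364).

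**Figure D5:**
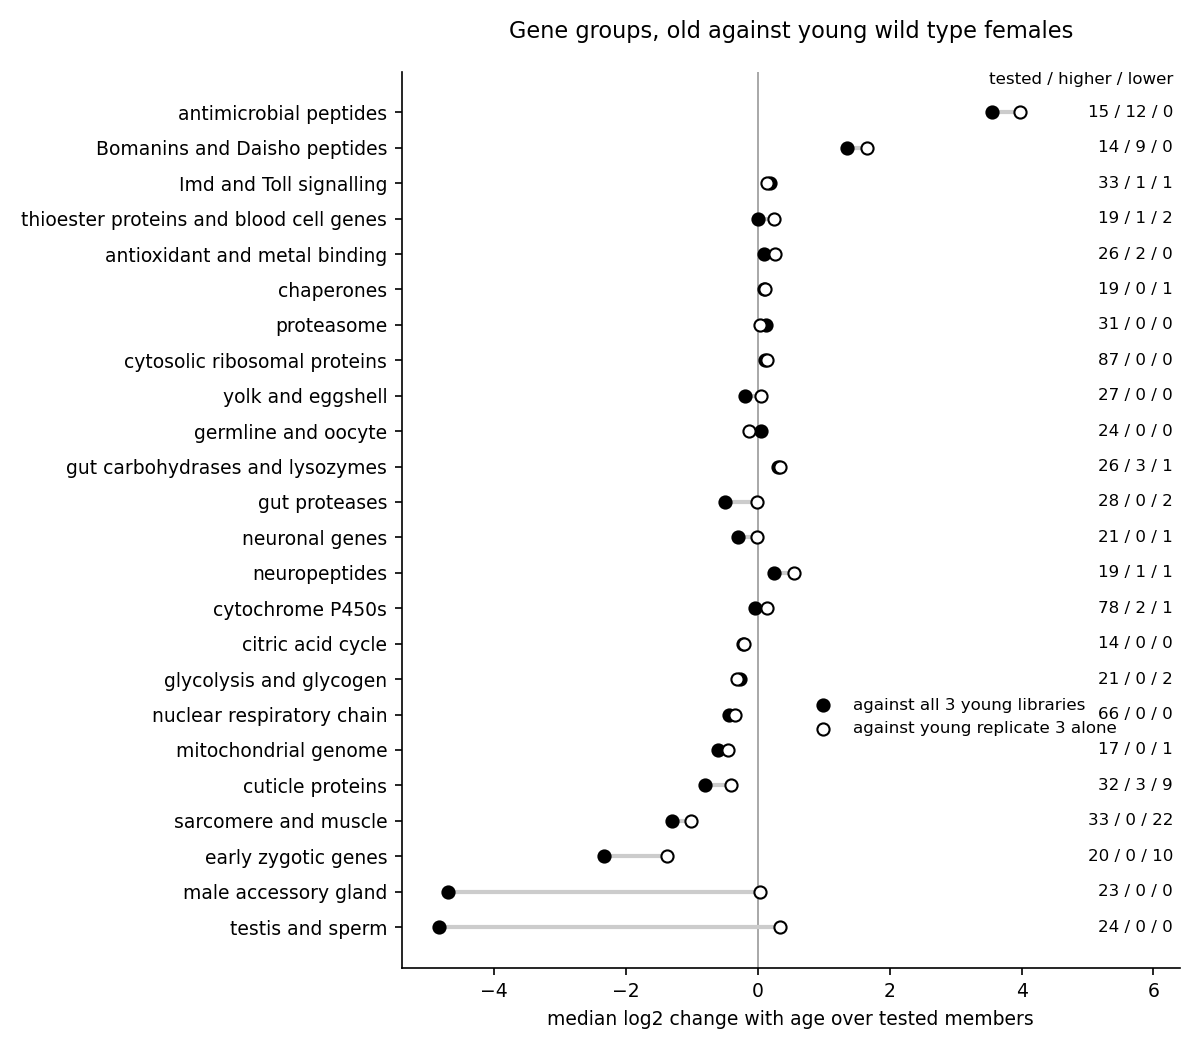
Median log2 change with age over the tested members of 24 gene groups, against all 3 young libraries (filled) and against young replicate 3 alone (open), with the number of members tested, called higher and called lower at the right. Immune effectors lie above 0 and muscle and early zygotic genes below 0 with either baseline, whereas the male accessory gland and testis groups move from near -5 to near 0.

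Across the genome 37% of the called rises with a known position lay on chromosome arm 2R, which holds 20.4% of the genes tested, and 16 of these 37 genes were antimicrobial peptides or Bomanins. The X chromosome held 6% of the rises and 8.54% of the falls, and 16% of the genes tested. In the mutants 90 of all genes tested were called higher (0.789%) and 116 lower (1.02%). Of the 101 wild type rises 97 were above 0 in the mutants, as were 44.3% of all genes tested, and 35 were called there. Of the 247 falls 216 were below 0, as were 55.7% of all genes, and 97 were called there. These comparisons share no library, but young mutant replicate 1 carried male transcripts as well, with an accessory gland sum of 16045 against 42.2 and 51.8 in the other young mutants, and its part in these counts was not tested. The median log2 change of the wild type rises was 1.07 in mutants, and that of the falls -0.95. The difference of the age changes between genotypes passed an adjusted p of 0.05 in 18 genes (0.158%), 9 of which fell with age in wild type and none of which rose. The antimicrobial peptides had a median change of 1.11 in the mutants with 1 call, against 3.55 with 12 calls in wild type. The Bomanins had 0.52 with 1 call, against 1.36 with 9. In the young mutants the antimicrobial peptides summed to 12139, 4462 and 5376 and the Bomanins to 26095, 8411 and 11545. Young mutant replicate 1 thus lay above every other mutant library, old ones included, in both sums. Its part in the smaller mutant changes was not tested. No member of the antimicrobial peptide list passed the limma test of the difference between genotypes (smallest adjusted p = 0.396), and none of the Bomanin list did (0.441).

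Some genes held although their young values followed the male transcripts. Sfp53D, a seminal fluid protein gene, had 24.4, 63 and 6.88 in the young libraries and 0 in the old ones and held, and the mitochondrial porin gene Porin2 had 148, 409 and 21.6 and 10.8, 2.86 and 9.27 (-3.84 ± 0.96, adjusted p = 0.0284, and -1.54 against replicate 3). Both were picked after their values were seen. The male accessory gland sum beside these values was 10410.5, 33436 and 41.3 in the same young libraries, and its part in the result was not tested.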

How the data were processed

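Poly(A) RNA of whole females was sequenced, and the deposited table holds DESeq2-normalised counts, a signal the authors made with STAR 2.7.3a, HTSeq 0.11.2 and DESeq2 1.20.0 on the BDGP6 build. Neither the study's methods nor its labels say if reads were counted by strand. Every sample carries the protocols of 2 library kits, with no word on which was used, so a batch could not be tested. The deposited normalised signal was a whole multiple of 1 read's worth within 0.01 for 100% of values, and reads were recovered from it for edgeR 4.0.16 and DESeq2 1.42.0 as alternatives.

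The main test was limma 3.58.1 (R 4.3.3; moderated with a mean trend, two-sided) on log2 of the normalised count plus a pseudocount of 1, with 12 libraries in 4 groups, so that the mutants shared in the estimate of the spread. Genes needed a value of 10 in at least 3 libraries. p-values were adjusted by Benjamini-Hochberg over all 11403 genes, and a call needed an adjusted p under 0.05 and a change over 2-fold. Same-numbered young and old libraries deviated with correlations of -0.11, 0.04 and -0.03, so numbers were not taken as pairs.

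The members, the 43 gene lists and the rules were chosen with earlier results of these data known. Named genes were the 12 largest called changes each way with a mean of at least 50, groups that did not overlap and replicate 3 at least 2-fold away, up to 4 called and held members of each list with the largest change, and list members without a call. Other called list members were described beside them. Mpcp1 and retinin were picked from the called genes outside these rules. Positions came from an Ensembl annotation of the same assembly and matched 11363 tested symbols; 4 list entries had no match. Genes in low counts were compared by recovered reads, with 3 reads over the group as the limit of a count of 0 and 95% exact intervals, which cover counting error only.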

Additional observations from a re-analysis of the deposited data

Results flagged for a closer look

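For 3 of the genes named for wild type females, the change with age differed between genotypes by a test of the difference itself. For CG10035 the wild type change minus the mutant change was -7.41 ± 1.00 on the log2 scale (limma adjusted p = 0.0149), and the mutants had 0.977, 0 and 1.02 normalised counts when young and 2.79, 0.996 and 3.23 when old, both at the level of the old wild type flies. For link the difference was -5.46 ± 0.77 (limma adjusted p = 0.0215), with 7.82, 4.40 and 5.08 in young and 7.44, 6.97 and 7.27 in old mutants. CG10035 and link were under 10 in every library but the young wild type ones. They passed the filter of 10 in 3 libraries through those only. Their differences therefore restate the level in young wild type and give no separate evidence on the mutants. For Act88F it was -3.32 ± 0.43 (adjusted p = 0.0147), with 1639.6, 1317 and 1223 in young and 1564, 2783 and 1462 in old mutants, so that the young mutants lay near the old wild type flies. Without the libraries with male transcripts the differences were -6.83, -4.80 and -2.69 (CG10035, link and Act88F; adjusted p = 0.202, 0.253 and 0.181), and the part of those libraries in the result was not tested further.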

How the results depend on the processing

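Against 101 rises and 247 falls, the count of rises was 45 and that of falls 99 with a replicate block on the wild type libraries, 204 and 153 with quantile normalisation, and 169 and 1448 with library weights, whose estimation stopped before it converged. Falls were 103 without the libraries with male transcripts and 775 with DESeq2 on recovered reads. Leaving out each wild type library in turn gave 55 to 112 rises and 179 to 1418 falls, the latter without young replicate 3. The other alternatives, TMM scaling, pseudocounts of 0.5 and 5, no filter, a filter in 6 libraries, the wild type libraries alone and edgeR, stayed within 1.5 times of both counts. For the 18 genes with a difference between genotypes, alternatives were chosen after seeing the data. They gave 40 with no filter, 3041 with library weights and 5 to 201 with 1 library left out. Without the libraries with male transcripts most of the 18 no longer passed, and most genes that then passed were other ones. Among the 58 named genes 29 kept direction and call in every alternative in which they were tested. The filter in 6 libraries tested only 44 of the 58, so the rest were not put to that alternative. In 1 case the value reversed, that of Ilp3 at 0.11 with quantile normalisation. The most calls were lost without old replicate 3 (17 genes) and with the block (16), and 13 without the libraries with male transcripts. The cause of these shifts was not tested.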

Other observations

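Dropping the libraries with male transcripts added 64 rises that all young libraries together did not show. The 4 named here were picked after their values were seen and stand for no group. Rh4, an opsin of ultraviolet-sensitive photoreceptors, had 794, 893 and 648 normalised counts in the young and 1573, 1253 and 1619 in the old libraries; its change went from 0.93 to 1.18 (limma adjusted p = 0.0131), just past 2-fold. Irc, an immune-regulated catalase, had 2150.2, 2399.9 and 1849.9 and 3694, 3557 and 4267, and went from 0.85 to 1.05 (adjusted p = 0.00841). For both, all old libraries lay above all young ones with either baseline. The metallothionein MtnD had 253, 177 and 91.4 and 278, 211 and 195 with overlapping groups, and passed against replicate 3 as the only young library (1.29, adjusted p = 0.0387). Lsp1beta, a larval serum protein, had 138, 1003 and 104 and 292, 281 and 242, so that young replicate 2 stood above every old library while the others lay below; its change went from 0.15 to 1.37 (adjusted p = 0.00704).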
